A study of Drosophila melanogaster with 32 samples.

Results

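The translation initiation factor genes are the genes that encode the proteins which bring a ribosome to the start of a messenger RNA. They were taken here as the genes of the dm6 annotation whose symbol begins with eIF, which gave 44 of the 17673 genes on the chromosome arms of Drosophila melanogaster. A ChIP-seq peak belonged to a member when its summit, the base of strongest signal, lay within the gene or up to 250 bp beyond either end. Of the 113005 peaks in 24 lists, 482 met this rule. The members lay on 3R (13 genes), 3L (11), 2R (9), X (7), 2L (3) and 4 (1), with lengths of 736 to 45884 bp and a median of 1967.5 bp, against a median of 2161 bp for all protein-coding genes.

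ChIP-seq maps where a protein sits on chromatin, and was done in Kc167 cells, a cell line from Drosophila embryos. Cells given double-stranded RNA against M1BP (20 µg, 5 days at 25 °C) were compared with mock-treated cells, using antibodies to Mod(mdg4), Su(Hw), CP190 and M1BP. Cells given double-stranded RNA against Cp190 (12 µg, 5 days) were compared with a second set of mock-treated cells, using antibodies to CP190 and M1BP. Each of the 12 groups held 2 libraries with a peak list each, and the labels do not say whether these came from separate cultures. What the mock-treated cells received is not stated in the labels. The files give no measure of how much M1BP or CP190 protein was left after knockdown. Lists held 1699 to 8443 peaks, and their read depth is unknown here.

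Initiation begins when eIF2 carries the initiator tRNA to the small ribosomal subunit, with eIF1, eIF1A, eIF3 and eIF5 bound to it. The eIF4 proteins recognise the cap of the messenger RNA and unwind its leader, and eIF5B and eIF6 act on the joining of the large subunit. M1BP recognises Motif 1, a sequence element of housekeeping promoters that include many genes of the translation machinery. Su(Hw) is a DNA-binding insulator protein, and CP190 and Mod(mdg4) are partner proteins of several insulator complexes, with CP190 also found at many promoters. The design asks whether M1BP and the insulator proteins bind the same places, and whether the binding of either depends on the other.

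In mock cells M1BP had a site at 16 of the 44 members (36.4%), beside 22.4% of the 13911 protein-coding genes. A site is a set of overlapping peaks, is counted as bound when both mock libraries hold it, and is assigned to a gene when its strongest peak in at least 1 library has its summit there. CP190 had a site at 28 members (63.6%, beside 42.9%), Su(Hw) at 4 (9.09%, beside 11.5%) and Mod(mdg4) at 2 (4.55%, beside 8.79%). Counted at gene ends only, the shares were 31.8% for M1BP (beside 19.8%) and 59.1% for CP190 (beside 35.5%). These shares are descriptions of the members with no test, and a site between close neighbours is counted for each of them.

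The members fell into few patterns. By summits in the gene window, M1BP and CP190 without Su(Hw) or Mod(mdg4) were found at 11 genes, CP190 alone at 13, M1BP alone at 3 (eIF5, eIF3i and eIF6), and no protein at 13. The 3 genes counted as M1BP alone all had a CP190 site in the second mock set. In the first mock set eIF3i (3.29) and eIF6 (2.95) had a CP190 peak in replicate 2 alone. Some genes counted as CP190 alone still had M1BP close by. At eIF4A, eIF4G2, eIF2Bdelta and eIF3l the CP190 site overlapped an M1BP site of mock cells whose strongest summits lay outside the gene window. Su(Hw) shared the gene window with CP190 at eIF2gamma, with CP190 and M1BP at eIF4EHP, with CP190 and Mod(mdg4) at eIF4E5, and with all 3 others at eIF5B. A shared window is not a shared place. In mock cells no M1BP summit lay in any of these Su(Hw) sites, and no CP190 summit lay in that of eIF2gamma. In 11 genes no list of the series held a peak, and these were eIF1, eIF2D, eIF2Balpha, eIF3f2, eIF3g2, eIF4B, eIF4E3, eIF4E4, eIF4E7, eIF4G1 and eIF4H2. They had a median length of 1418 bp, against 2309 bp for the 33 genes with a peak. eIF3d2 had a single peak, for Mod(mdg4) in M1BP knockdown replicate 2 (2.62).

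**Figure D1:**
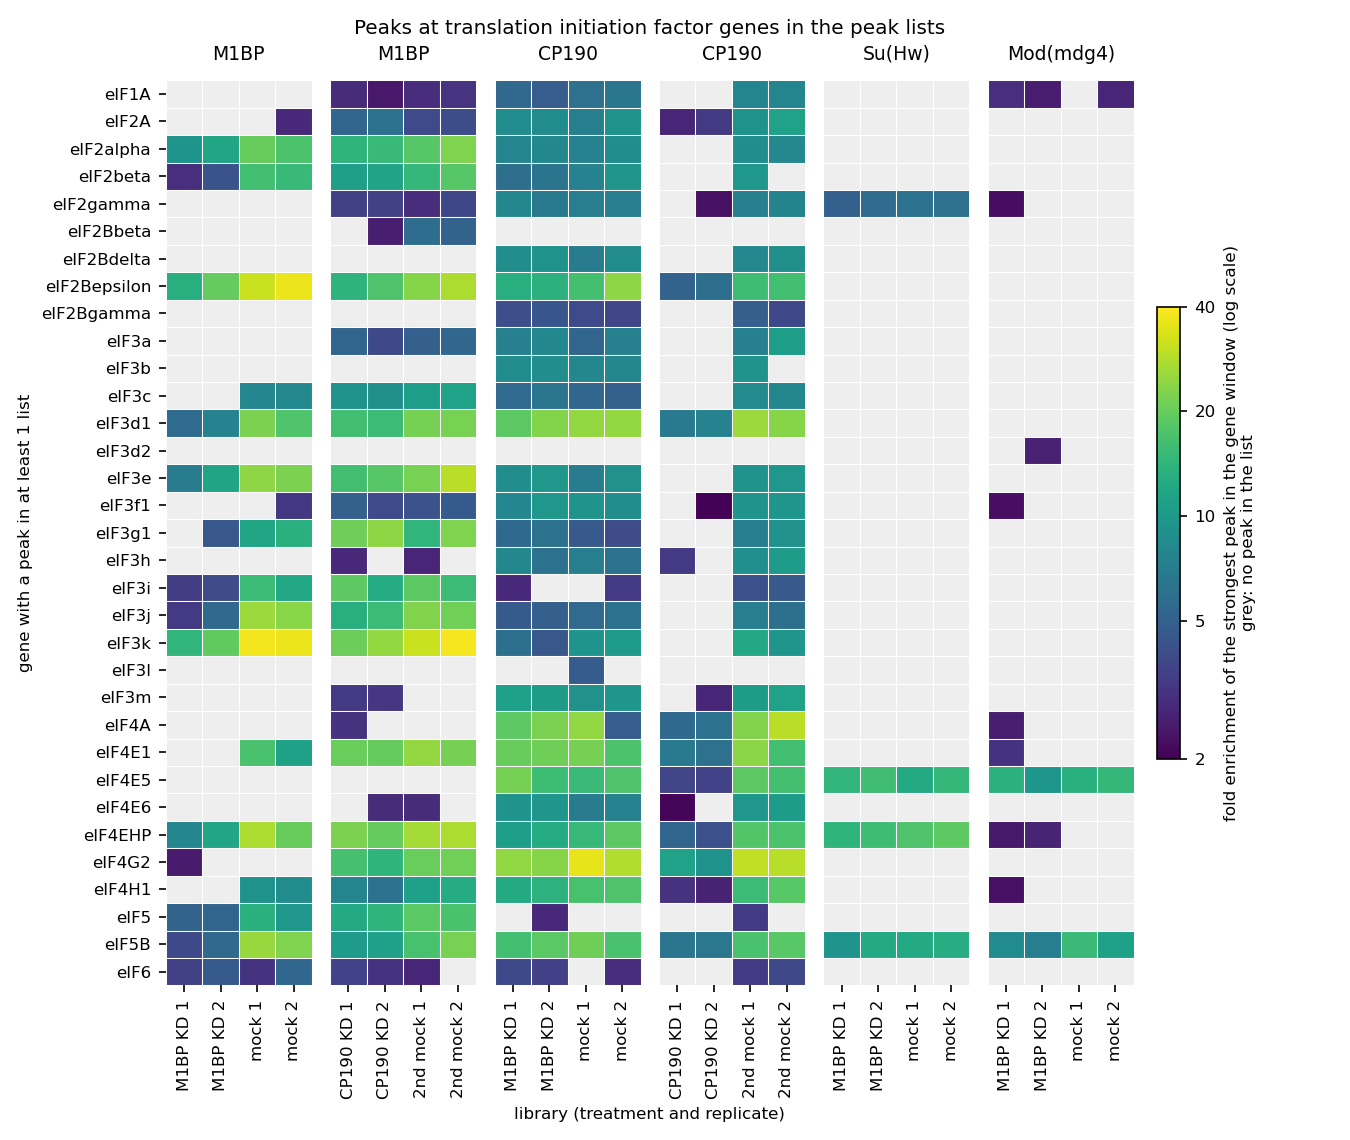
Fold enrichment (log colour scale) of the strongest peak with its summit in the gene window, for the 33 members with a peak, in each of the 24 libraries. Grey cells have no such peak, and a cell can be grey or pale where the strongest summit of a site lies just outside the window, as for eIF4A in CP190 mock replicate 2. M1BP and CP190 fill most rows, and Su(Hw) fills the rows of eIF2gamma, eIF4E5, eIF4EHP and eIF5B.

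By complex, the scaffold complex eIF3 is the largest group. Of its 16 genes 12 had a CP190 site and 7 an M1BP site in mock cells. eIF2, the carrier of the initiator tRNA, together with eIF2A and eIF2D, had CP190 at 4 of 5 genes and M1BP at 2. eIF2B, which recharges eIF2 with GTP, had CP190 at 3 of 5 and M1BP at 1, the catalytic subunit gene eIF2Bepsilon. Of the 13 eIF4 genes 7 had CP190 and 3 had M1BP, and 6 had no peak in any list. Each of eIF5, eIF5B and eIF6 had M1BP, and of these eIF5B also had CP190.

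M1BP sat close to gene ends at the members and in all gene windows alike. The annotation used gives no strand, so an end is named here as the lower or the higher coordinate. Of the 19 M1BP sites bound in both mock libraries, 16 (84.2%, beside 84.2% of M1BP sites in gene windows) had a summit no more than 250 bp from a gene end, with a median of 29.0 bp (beside 31.0 bp). Of these 16, 7 lay near the ends of at least 2 genes (43.8%, beside 39.6%). Neighbours that share such a site include Ocrl with eIF2Bepsilon, GILT2 with eIF3d1, Scox with eIF3i and ND-20 with eIF5. The list does not show which of the neighbours a shared site serves. Of the 19 sites 14 overlapped a CP190 site (73.7%, beside 79.8% of M1BP sites in gene windows). The M1BP and CP190 summits of these 14 lay a median of 24 bp apart (beside 48.5 bp), and none of the 19 overlapped a Su(Hw) site (beside 3.55%) or a Mod(mdg4) site (beside 3.71%), which is near the background.

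M1BP knockdown left 4 of the 19 M1BP sites lost, which means a peak in both mock lists and in neither knockdown list. This is 21.1%, beside 33.6% of the 2397 M1BP sites in gene windows. A further 13 sites (68.4%, beside 60.0%) were retained in all 4 lists, 2 had a peak in 1 knockdown list, and none was gained (beside 0.848%). The 4 lost sites lay at eIF4E1, eIF4H1, eIF3c and eIF5, and all 4 overlapped a CP190 site of mock cells. At eIF5 the mock CP190 summits of that site lay outside the gene window, so the gene itself counts as without CP190. Of the 14 M1BP sites with CP190, 4 were lost (28.6%, beside 29.8% of such sites in gene windows). Of the 5 without CP190, 0 were lost (beside 48.6%). Without CP190 means here that no CP190 site was held by both mock libraries. Among these 5, the sites of eIF3i and eIF6 had a CP190 peak in mock replicate 2 and in both second mock libraries. With 2 libraries against 2, an exact permutation test cannot go below p = 0.333, two-sided, so no single difference between these libraries can pass a test at the usual threshold.

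The strongest lost site was at eIF4E1, the gene of the cap-binding protein (chr3L:9401992-9402784, dm6 positions). No M1BP peak was listed there in either knockdown library, against folds of 16.9 and 11.0 in the mock libraries. Fold here is ChIP signal over control signal at the peak, as the authors' caller gave it, without scaling between libraries. At eIF4H1, which encodes a helper of the eIF4A helicase, the knockdown libraries had no peak, against 9.22 and 8.46 in mock cells. The site at the higher end of eIF3c, a core subunit gene, had none, against 7.91 and 8.20. The site at the higher end of eIF5, whose protein triggers GTP hydrolysis by eIF2, had none, against 11.1 and 5.24. All 4 lost sites stood in the lower or middle part of the mock lists, with mean percentiles of 35.9 to 53.4, where 100 is the strongest peak of a list. Retained eIF sites had mean mock percentiles of 16.6 to 99.2, with a median of 74.6. When all 4 lists were shortened to their strongest 1699 peaks, eIF4E1 was the 1 lost site, and eIF5B and eIF6 had a gained site each.

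Among retained sites the highest mean mock fold was at eIF3k, a peripheral eIF3 subunit gene. Its M1BP folds were 14.2 and 19.3 after M1BP knockdown, against 37.9 and 36.5 in mock cells. Those peaks took places 88 and 99 from the top of the knockdown lists, against places 30 and 21 in the mock lists, so the site stayed among the strongest. eIF2Bepsilon had 13.3 and 19.6 after knockdown, against 31.3 and 36.8 in mock cells. At eIF2alpha, the subunit gene whose product is phosphorylated by stress kinases, the folds were 9.39 and 11.8, against 19.9 and 17.1. The groups did not overlap at 12 of the 13 retained sites, these 3 among them, and all 12 were lower after knockdown. In gene windows 88.4% of retained M1BP sites were lower in the same way, so this count is near the background. The exception was the weak site of eIF6, with 3.58 and 4.64 after knockdown, against 3.10 and 5.35 in mock cells.

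Ranks among the retained sites compare the same 1468 sites in every library. Both knockdown percentiles lay below both mock percentiles at 6 of 13 sites (46.2%, beside 34.0% in gene windows), and above them at 4 (30.8%, beside 41.6%). With 13 sites, both counts are near the background. The lower ones were at eIF2beta, eIF3d1, eIF3i, eIF3j, eIF3k and eIF5B. eIF3j, a loosely attached eIF3 subunit gene, had folds of 3.28 and 5.42 after knockdown, against 25.6 and 23.4 in mock cells. Its percentiles among retained sites were 16.1 and 31.3, against 73.0 and 80.0. The M1BP site near the higher end of eIF5B (chr3L:3460168-3461884) had folds of 3.88 and 5.47, against 25.1 and 22.5, and percentiles of 24.7 and 32.2, against 70.4 and 75.7. Both sites thus ranked low in the knockdown libraries and high in the mock libraries, while eIF3k had percentiles of 94.1 and 93.3, against 98.1 and 98.6. The sites with higher ranks after knockdown were at eIF2alpha (74.0 and 70.7, against 46.6 and 48.8), at the lower end of eIF5, inside eIF5B and at eIF6.

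The other retained sites had intermediate values. eIF2beta had 3.01 and 4.30 after knockdown, against 16.2 and 15.0 in mock cells. eIF3d1, a subunit gene of eIF3, had 5.65 and 7.48, against 22.1 and 17.6. eIF3e had 6.90 and 11.5, against 24.1 and 22.1. None of these 3 lost its peak in a library. eIF3i had 3.41 and 3.95, against 15.4 and 12.1. eIF4EHP, the gene of a cap-binding repressor of translation, had 7.93 and 11.7, against 27.7 and 20.0, at a site inside the gene that is shared with an end of Syx1A. The lower end of eIF5 had 5.05 and 5.27, against 13.4 and 9.75. A second retained site inside eIF5B was weak in every library, with 2.89 and 3.64, against 4.10 and 4.43. The 2 sites left unclassed were at eIF3g1, with a peak of 4.51 in knockdown replicate 2 alone, against 11.8 and 13.4, and inside eIF5B, with 2.23 in knockdown replicate 1 alone, against 3.43 and 3.27.

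**Figure D2:**
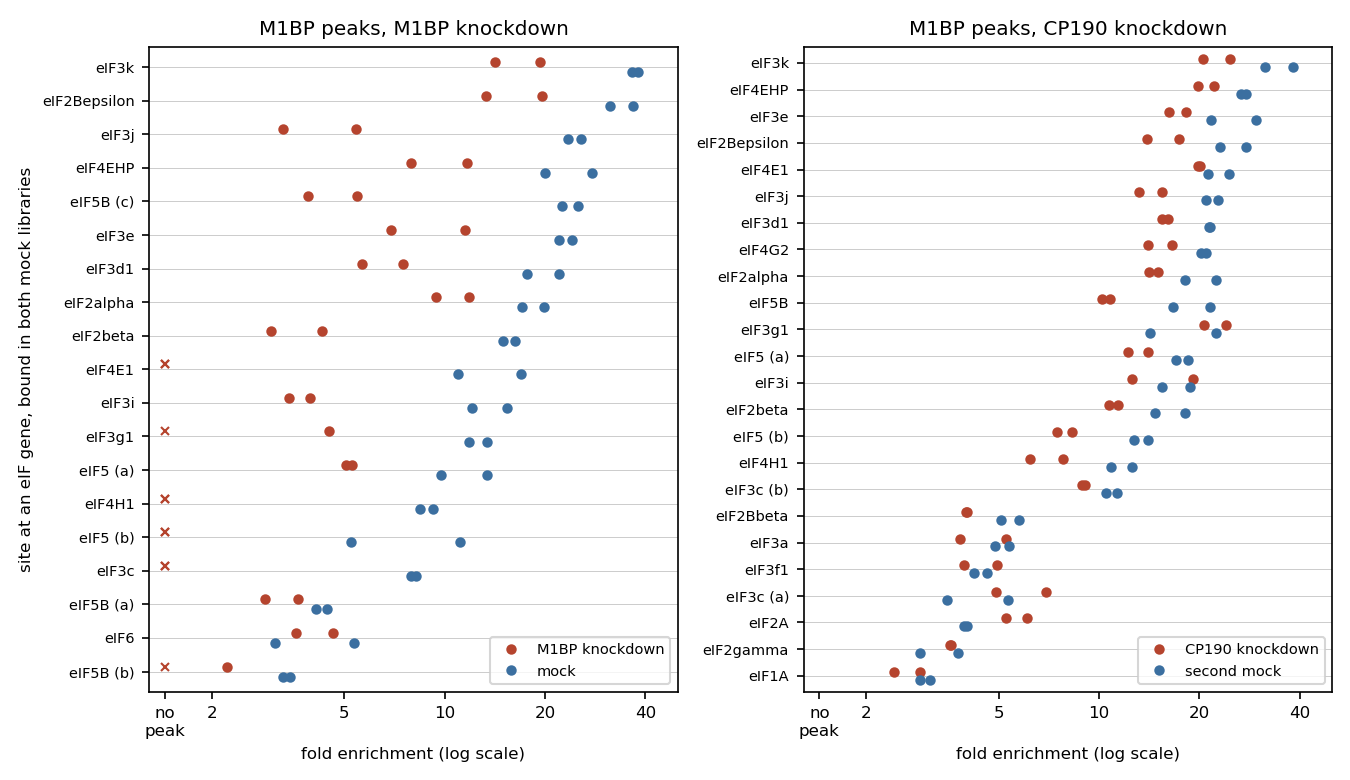
M1BP fold enrichment (log axis) at each eIF site bound in both mock libraries, 1 point per library, red after knockdown and blue in mock cells, with crosses for no peak. Left, M1BP knockdown: crosses in both libraries mark eIF4E1, eIF4H1, eIF5 (b) and eIF3c. Right, CP190 knockdown: all 24 sites keep a peak in both libraries. Letters distinguish sites of 1 gene from the lower to the higher coordinate.

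CP190 kept a peak at nearly all eIF sites in M1BP knockdown cells. The mock cells had 33 such sites, of which 32 were retained (97.0%, beside 91.9% in gene windows), 1 was lost (3.03%, beside 4.57%), and 1 site was gained (beside 3.71% of sites with a peak in any list). The lost site was a weak one inside eIF5B (chr3L:3460405-3460859), without a peak after knockdown, against 3.30 and 3.44 in mock cells. It lay under the M1BP site of eIF5B that ranked lower in knockdown cells. The gained site was at the higher end of eIF3j, with 4.61 and 4.92 after knockdown and no peak in mock cells. The second mock set did hold a CP190 peak there in both libraries, with 5.44 and 4.67. The gained count was 2 without M1BP knockdown replicate 1, 2 without M1BP knockdown replicate 2 and 3 without mock replicate 2.

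The strongest CP190 peaks lay at eIF4 genes and eIF3d1. eIF4G2, an eIF4G-type scaffold gene, had 24.2 and 23.3 after M1BP knockdown, against 35.6 and 27.9 in mock cells. eIF4A, the gene of the RNA helicase, had 18.7 and 21.8, against 24.3 and 28.0. eIF3d1 had 18.7 and 23.0, against 24.7 and 24.6. At these 3 genes the fold groups did not overlap, but their percentiles among retained sites did. eIF2Bepsilon had 13.2 and 13.5, against 16.3 and 24.1, and the eIF5B site at chr3L:3456369-3457739 had 16.1 and 18.6, against 20.7 and 17.0. eIF4H1 had 12.4 and 13.7, against 16.8 and 17.4. eIF4E1 had 19.9 and 20.6, against 21.4 and 17.1, with overlapping groups. Its percentiles among retained sites were 87.1 and 86.1, against 81.2 and 74.5, so CP190 ranked higher there. At eIF4H1, where the M1BP peak was lost as at eIF4E1, the percentiles were 65.3 and 69.4, against 73.1 and 75.0. At the higher end of eIF3c, also without M1BP after knockdown, they were 0.788 and 0.273, against 4.45 and 1.01. CP190 thus ranked higher at eIF4E1 and lower at eIF4H1. The eIF3c site was among the weakest retained CP190 sites in every library, with folds of 2.41 and 2.23, against 3.42 and 2.90. Its lower rank therefore carries little weight. The CP190 site at the higher end of eIF5 was not assigned to that gene, so its ranks are not given.

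The CP190 folds were lower in both knockdown libraries at 14 of the 32 retained sites (beside 39.8%) and higher at 9 (beside 15.6%). Split by M1BP, ranks among retained sites were lower at 8 of the 16 retained sites that M1BP bound in mock cells (beside 34.2% of such sites in gene windows) and higher at 4 (beside 20.1%). At the 16 sites without M1BP they were lower at 3 (beside 19.6%) and higher at 8 (beside 29.8%). Gene-window sites show the same lean, and the difference between members with and without M1BP was not tested. The widest gaps down were at eIF3k and eIF3j. eIF3k had CP190 folds of 5.95 and 4.52, against 9.48 and 10.2, and percentiles of 30.9 and 18.1, against 51.6 and 54.1. eIF3j had folds of 3.01 and 3.25, against 5.56 and 6.19, and percentiles of 3.56 and 5.29, against 24.8 and 29.7. eIF3g1 went the other way at an M1BP site, with folds of 5.51 and 6.19, against 4.59 and 3.95.

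**Figure D3:**
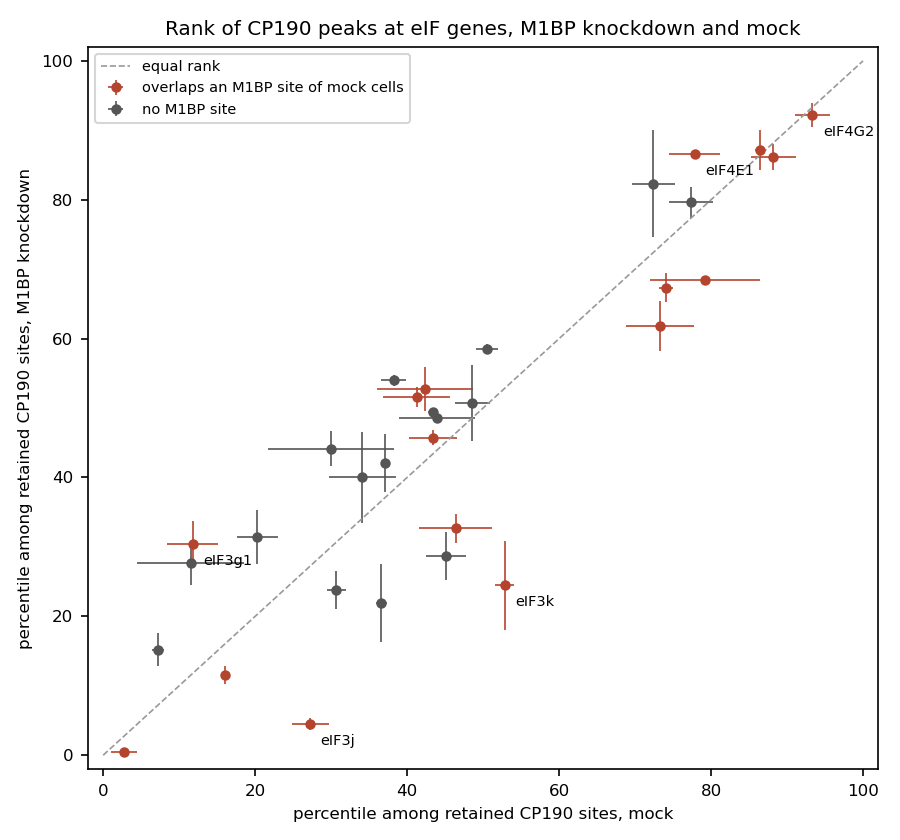
Percentile of each CP190 site at an eIF gene among the CP190 sites retained after M1BP knockdown (100 strongest), knockdown on the vertical axis and mock on the horizontal axis. Points are means of 2 libraries, and bars run between the libraries. Sites that overlap an M1BP site of mock cells are red and the rest grey. eIF3k and eIF3j lie farthest below the dashed line of equal rank, and eIF3g1 and eIF4E1 lie above it.

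Su(Hw) and Mod(mdg4) lay at few members. Mock cells had 10 bound Su(Hw) sites, of which 6 were inside eIF4EHP, the longest member, 2 inside eIF5B, 1 at the higher end of eIF4E5, a further cap-binding protein gene, and 1 at the lower end of eIF2gamma, the GTP-binding subunit gene of eIF2. After M1BP knockdown 9 were retained (90.0%, beside 99.1%), 1 was lost (10.0%, beside 0.337%) and none was gained (beside 10.3%). The lost one was weak, inside eIF4EHP (chr3R:24079549-24079975), with no peak after knockdown, against 2.47 and 3.76 in mock cells. The strongest one lay inside eIF4EHP as well (chr3R:24082123-24083568), with 14.0 and 15.7, against 17.3 and 19.0. eIF4E5 had 14.2 and 16.0, against 12.2 and 14.7, and eIF2gamma had 4.97 and 5.68, against 6.17 and 6.07. The eIF5B sites had 7.78 and 9.23, against 12.2 and 12.7, and 9.38 and 12.2, against 11.7 and 13.0. The fold groups did not overlap at 6 of the 9 retained sites, all lower after knockdown (beside 34.6%). Ranks among retained sites were lower at 6 (beside 27.1%) and higher at 1, eIF4E5 (beside 26.3%). The same 6 sites were lower by fold and by rank. Most of them lay inside eIF4EHP, and the others were at eIF2gamma and eIF5B, so both counts rest largely on 1 gene. Without mock replicate 1, 1 site was gained.

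Mod(mdg4) had 2 sites in both mock libraries, and both were retained (beside 89.7%), so none was lost (beside 4.22%). At eIF4E5 the folds were 13.5 and 9.69 after M1BP knockdown, against 13.4 and 14.7 in mock cells. At eIF5B they were 8.43 and 7.08, against 15.2 and 11.0. Both places also held Su(Hw) and CP190, whose summits with those of Mod(mdg4) fell within 76 bp at eIF4E5 and within 42 bp at eIF5B in the mock libraries, and no M1BP summit lay in these sites. A weak Mod(mdg4) site was gained inside eIF4EHP (chr3R:24082481-24082775, beside 7.23% gained in gene windows), with 2.17 and 2.69 after knockdown and no peak in mock cells, under the strongest Su(Hw) site of that gene. The knockdown lists held 12 and 7 Mod(mdg4) peaks at members, against 2 and 3 in the mock lists, and the lists themselves were longer, with 5575 and 4862 peaks, against 2999 and 3664. Most of these peaks were in 1 library alone. The gained count was 4 without M1BP knockdown replicate 1, 9 without M1BP knockdown replicate 2 and 2 without mock replicate 2, and 0 with lists of equal length.

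**Figure D4:**
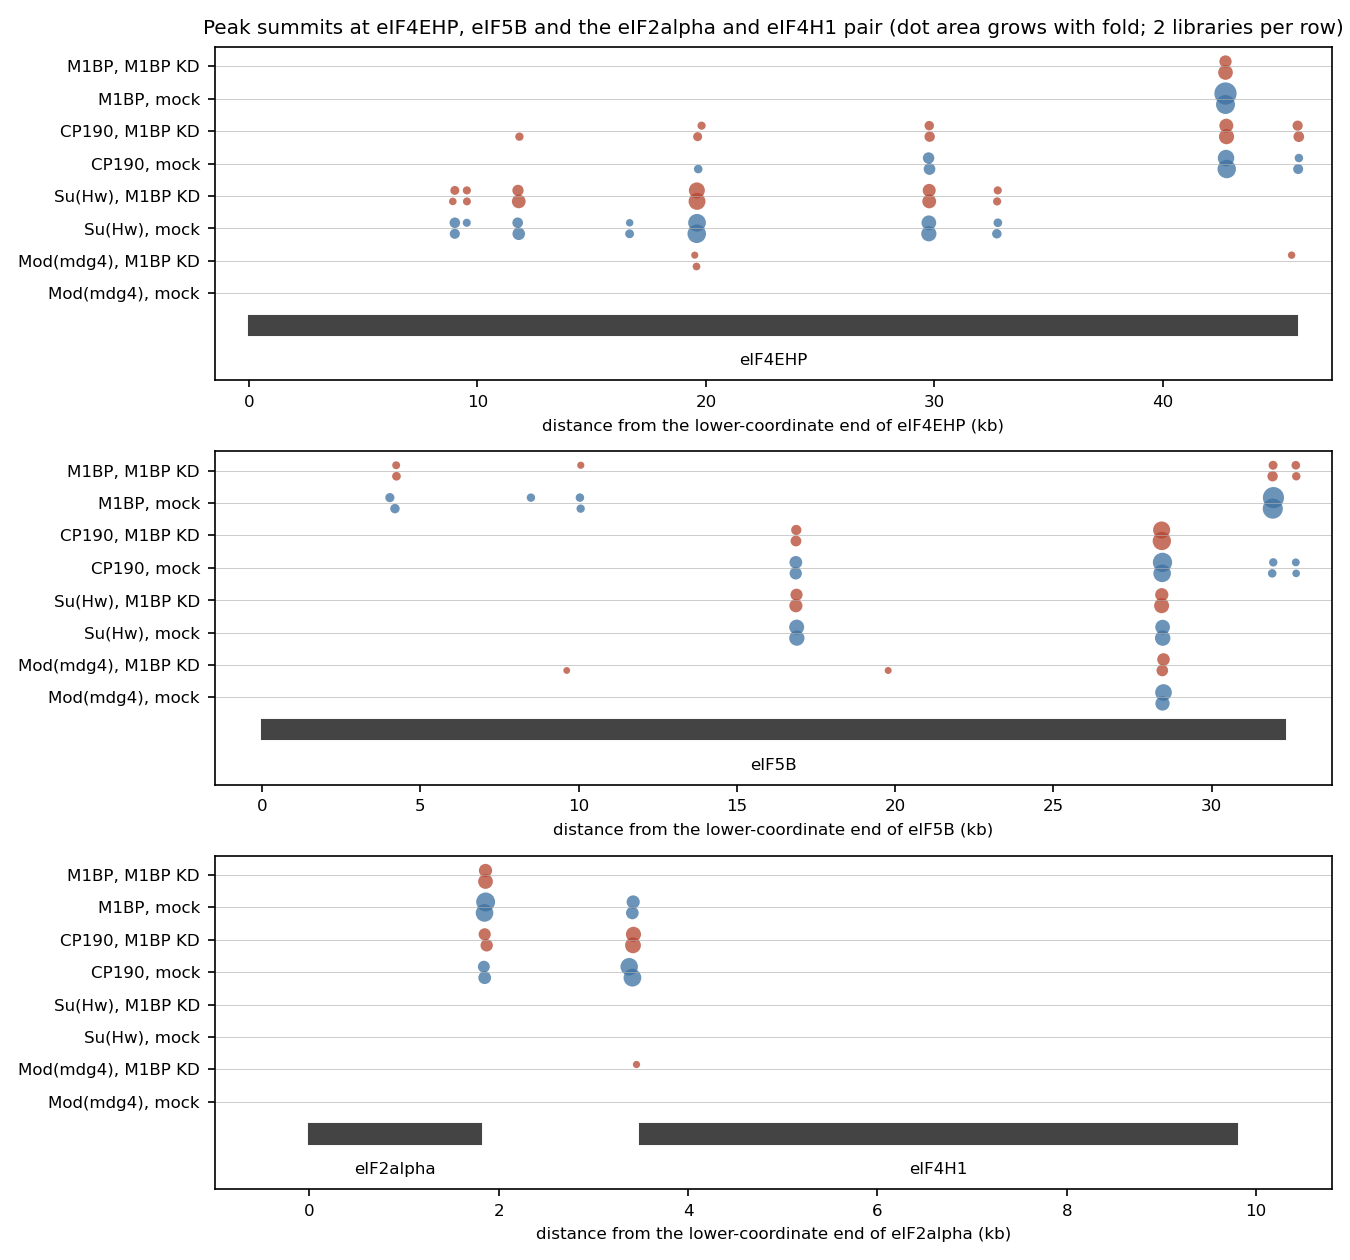
Summits of the peaks of the first experiment along eIF4EHP, eIF5B and the neighbours eIF2alpha and eIF4H1, in kb from the lower-coordinate end. Each row is an antibody and treatment with 1 line of dots per library, red after M1BP knockdown and blue in mock cells, and dot area grows with fold. In eIF4EHP the Su(Hw) dots lie apart from the M1BP site, in eIF5B the 3 insulator proteins share a place that M1BP lacks, and between eIF2alpha and eIF4H1 the M1BP dots of eIF4H1 are present in mock cells only.

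After CP190 knockdown, 21 of the 36 CP190 sites of the second mock set were lost (58.3%, beside 71.3% in gene windows) and 10 were retained (27.8%, beside 21.8%). The other 5 had a peak in 1 knockdown list, and none was gained (beside 0%). The knockdown lists held 2031 and 2150 peaks, against 8443 and 8197, and with all lists at 2031 peaks no eIF site was lost, 1 (eIF2A) was gained, and 9 members in place of 30 had a site in both second mock lists. At equal list length, then, no eIF site had a peak in both mock lists and in neither knockdown list. Lost sites had mean mock percentiles of 9.74 to 64.5 with a median of 43.7, and retained sites of 62.4 to 95.0 with a median of 81.4, so the classes hardly overlapped in strength.

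Losses are given by complex as a description with no test. Of 14 eIF3 sites 10 were lost, which is near the 71.3% of gene-window sites. Of the rest 1 was retained, at eIF3d1, and 3 were unclassed. Of 10 eIF4 sites with a peak in any of the 4 lists, 2 were lost (beside 71.3%) and 2 unclassed. The background counts only sites bound in both mock libraries, and an unclassed site inside eIF4EHP had a peak in second mock replicate 1 alone. The 6 retained (beside 21.8%) were at eIF4A, eIF4E1, eIF4E5, eIF4EHP, eIF4G2 and eIF4H1. Their second mock percentiles were 77.4 or more, against 45.1 or less at the 2 lost sites. The part of peak strength in the difference between complexes was not tested. The other retained sites were at eIF2A, eIF2Bepsilon and eIF5B. eIF4G2 had CP190 folds of 11.3 and 9.12 after CP190 knockdown, against 30.2 and 29.1 in the second mock set. eIF3d1 had 6.78 and 7.58, against 25.5 and 23.2. eIF4E1 had 6.81 and 6.06, against 23.9 and 16.2. In each of these the knockdown values lay below both mock values. eIF4A had 5.49 and 6.11, against 22.6 and 29.3, and eIF4H1 had 3.07 and 2.65, against 15.4 and 18.3. eIF4E5, which all 3 insulator proteins bound in the first mock set, had 3.75 and 3.63, against 18.9 and 16.4. The site of eIF5B shared by the insulator proteins had 6.41 and 6.57, against 17.0 and 18.3. All 10 retained sites were lower in both knockdown libraries (beside 99.4%). Among retained sites, ranks were higher at eIF2Bepsilon (43.8 and 51.7, against 23.3 and 23.5) and at that eIF5B site (57.0 and 58.4, against 28.9 and 33.2), 2 of 10 (beside 31.6%). They were lower at eIF4E5 and eIF4H1, 2 of 10 (beside 26.2%).

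Lost CP190 sites included most of the eIF3 genes with CP190. eIF3k had no peak after knockdown, against 12.0 and 9.58 in the second mock set. eIF2beta had none, against 9.76 and 11.2. eIF3e had none, against 9.32 and 9.80. These 3 genes also carry M1BP. The lost sites with the lowest mean mock fold were at eIF5 (none, against 3.34 and 3.14) and eIF6 (none, against 3.28 and 3.85). Of the 25 CP190 sites that M1BP also bound, 15 were lost (60.0%, beside 66.1%), and of the 11 without M1BP, 6 were lost (54.5%, beside 74.9%).

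**Figure D5:**
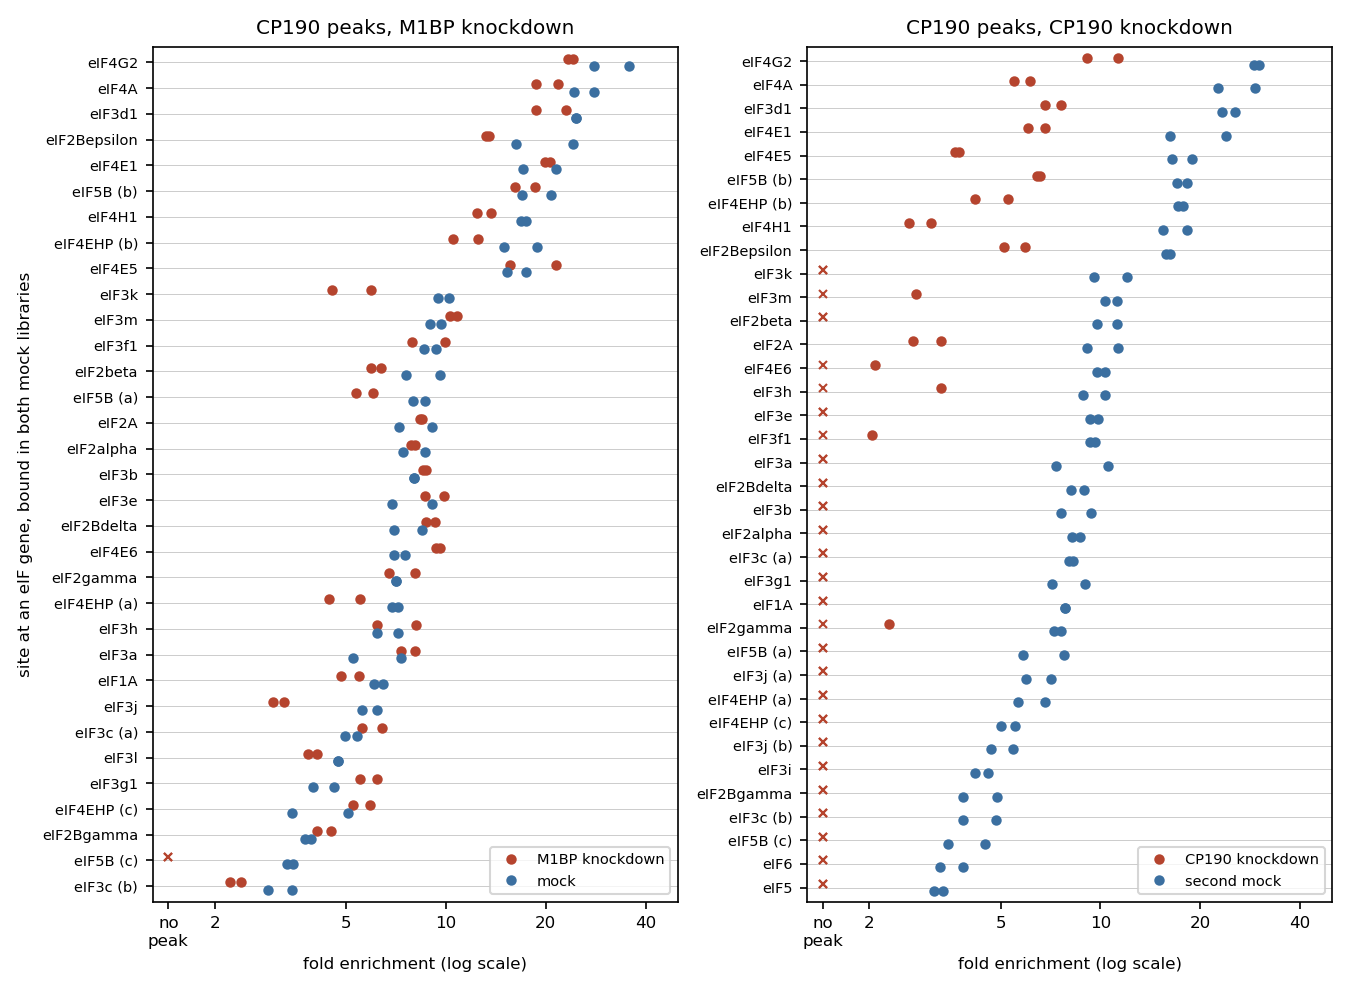
CP190 fold enrichment (log axis) at each eIF site bound in both mock libraries, 1 point per library, red after knockdown and blue in mock cells, with crosses for no peak. Left, M1BP knockdown: 1 site, eIF5B (c), has crosses in both knockdown libraries. Right, CP190 knockdown: 21 sites do, and the retained ones are mostly at the top, where mock folds are highest. Letters distinguish sites of 1 gene from the lower to the higher coordinate.

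M1BP stayed at every eIF site after CP190 knockdown. All 24 M1BP sites of the second mock set were retained (100%, beside 90.0%), none was lost (beside 4.78%) and 2 weak sites were gained (beside 2.93%). Of the 24 sites 22 overlapped a CP190 site in the second mock set (91.7%, beside 88.1%). The gained ones were at eIF3m, with 3.31 and 3.21 after knockdown and no peak in the second mock set, and at the higher end of eIF4EHP (chr3R:24108667-24109172), with 2.80 and 3.32 and no peak. Without second mock replicate 2, 1 site of eIF4EHP was lost.

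At genes where CP190 was lost, the M1BP values were those of a retained site. eIF3k had M1BP folds of 20.5 and 24.7 after CP190 knockdown, against 31.4 and 38.2 in the second mock set. eIF3e had 16.2 and 18.2, against 21.7 and 29.5. eIF2beta had 10.7 and 11.4, against 14.7 and 18.1. In these 3 genes the groups did not overlap and the knockdown values were lower. eIF3j had 13.2 and 15.5, against 22.8 and 20.9, and eIF2alpha had 14.1 and 15.0, against 18.1 and 22.4. The lower fold was found at 17 of the 24 sites (beside 61.0%) and a higher one at 1 (beside 6.19%), eIF2A, with 5.25 and 6.08, against 3.93 and 4.01. Ranks among retained sites were lower at 6 sites (beside 21.9%) and higher at 6 (beside 24.6%). eIF4E1 was among the higher ones, with folds of 20.1 and 19.8, against 24.5 and 21.3, and percentiles of 87.8 and 89.5, against 86.4 and 68.4. eIF4G2 had 16.6 and 14.0, against 20.2 and 21.0. At eIF2Bbeta the folds were 4.0 and 4.03, against 5.76 and 5.08, and the knockdown value belongs to a summit outside the gene window.

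The mock sets of the experiments differed for M1BP. M1BP was bound at 15 members in both sets, at 7 in the second set alone (eIF1A, eIF2A, eIF2Bbeta, eIF2gamma, eIF3a, eIF3f1 and eIF4G2) and at 1 in the first set alone (eIF6). Some of these had M1BP in the other set too. In the first set a bound M1BP site overlapped the CP190 site of eIF4G2, with its strongest summits outside the gene window. eIF2A (2.83) and eIF3f1 (3.25) had a peak in first mock replicate 2 alone, and eIF6 (2.76) in second mock replicate 1 alone. CP190 was bound at 27 members in both sets and at 3 in the second set alone (eIF3i, eIF5 and eIF6). It was bound at 1 in the first set alone (eIF3l). In the second set M1BP was bound at 22 of the 44 members (beside 29.1%) and CP190 at 30 (68.2%, beside 46.2%). The M1BP mock lists held 2980 and 2781 peaks in the first set and 3844 and 3426 in the second, and the part of list length in this difference was not tested.

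Other genes of translation were counted in the same way, again with no test. The accessory list held 16 genes of initiation control, such as kinases and poly(A)-binding partners, and the other list 14 genes of elongation and termination. After M1BP knockdown 3 of 8 M1BP sites of the accessory genes were lost and 5 retained, and for elongation and termination genes 2 of 8 were lost and 6 retained, beside 33.6% lost in gene windows and 4 of 19 at eIF genes. PEK, an eIF2alpha kinase gene, lost its M1BP site, with no peak after knockdown, against 23.4 and 20.0 in mock cells. S6k, the gene of a ribosomal protein kinase, retained it, with 4.28 and 5.80, against 27.5 and 30.7, as did Lk6, the gene of an eIF4E kinase, with 13.1 and 19.6, against 34.2 and 23.3. CP190 was lost at 3 of 17 accessory sites and at 0 of 11 elongation and termination sites after M1BP knockdown, beside 4.57% in gene windows and 1 of 33 at eIF genes. After CP190 knockdown CP190 was lost at 13 of 19 accessory and 12 of 17 elongation and termination sites, beside 71.3% in gene windows and 21 of 36 at eIF genes. M1BP was then lost at 0 of 11 accessory sites and at 3 of 10 elongation and termination sites, beside 4.78% in gene windows and 0 of 24 at eIF genes.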

How the data were processed

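Peak calling was done by the authors library by library, to judge from the deposited peak names. The submitters' processing notes name MACS2 2.2.5, Bowtie2 2.3.5, Picard 2.20.2 and SAMtools 1.9, and the sources used here give neither their order nor their options. The deposited score of a peak was not used. The fold enrichment, a ratio of ChIP over control signal from the authors' peak caller, served to describe and rank peaks within a list. The -log10 p and -log10 q are deposited values too, and the smallest -log10 q was 1.30. The last deposited value gives the summit as an offset from the peak start. Input libraries (8) came without lists and are not analysed here.

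The labels name no genome build. The sequence names match dm6, as does the largest coordinate on chrM (19524), and genes came from a RefSeq table of that assembly without strand. No sequence was used here, so the planned motif search was not run. Of the 31 symbols in the lists of other translation genes, 1 (Tor) matched no gene.

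For each comparison, overlapping peaks of its 4 lists (1 bp or more) formed a site, with Python 3.11.15 and pandas 2.3.3, in code tested on simulated data. Percentiles rank folds within a list, or among the sites retained in all 4 lists. The second kind ranks the same sites in every library, but which sites are retained still depends on list length. Shares over gene-window sites or protein-coding genes stand beside member counts as background. Every eIF gene could be named. Those planned in full were the ones with M1BP, Su(Hw) or Mod(mdg4) in both mock libraries, with a lost or gained site, or among the 8 highest mock CP190 folds. Not all of these values are printed. For the CP190 knockdown, lost CP190 sites and retained M1BP sites are given for some genes only. A gene without folds in the text can thus still have a lost or retained site. Up to 3 genes of each other list could be named. Members, lists and rules were chosen with earlier results of these data known. Libraries are 2 per group and may be technical repeats, so any p measures the spread between these samples. A site without a peak is below the authors' threshold, which does not show that binding is absent.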

Additional observations from a re-analysis of the deposited data

How the results depend on the processing

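Each of 25 counts was recomputed under the alternatives, which gave 239 values, 204 of them within 1.5 times the reported count. Merging sites over all lists of an antibody left 23 M1BP sites retained after CP190 knockdown, against 24 as reported, and moved none of the other values it gave. With lists of equal length the eIF counts became 1 M1BP site lost and 2 gained after M1BP knockdown, 0 Mod(mdg4) sites gained, 0 CP190 sites lost and 1 gained after CP190 knockdown, and 9 genes with CP190 in both second mock lists. With a stricter -log10 q, at least 10, CP190 gained 2 and Mod(mdg4) 0 sites and Su(Hw) lost 0 after M1BP knockdown, and M1BP gained 0 after CP190 knockdown. With summits within 100 bp, CP190 gained 2 sites after M1BP knockdown and M1BP 1 after CP190 knockdown, and with a window of 100 bp CP190 gained 0. At gene ends only, CP190 lost 0 sites after M1BP knockdown, Su(Hw) lost 0 and retained 2, Mod(mdg4) retained 1 and gained 0, and Su(Hw) was bound at 2 genes and Mod(mdg4) at 1. In the second mock set 22 M1BP sites overlapped CP190. Leaving out 1 library at a time gave 1 to 3 gained CP190 sites, 0 to 1 gained Su(Hw) and 1 to 9 gained Mod(mdg4) sites after M1BP knockdown, and 0 to 1 lost M1BP sites after CP190 knockdown. Lost M1BP sites after M1BP knockdown numbered 5 to 6 and lost CP190 sites after CP190 knockdown 18 to 24. In the replicate block, each knockdown library was set against the mock library of the same number, and the counts are means of the 2 pairs. It gave 7 lost M1BP sites, and 3.5, 0.5 and 7 gained CP190, Su(Hw) and Mod(mdg4) sites after M1BP knockdown. For M1BP after CP190 knockdown it gave 1 lost and 3.5 gained. Nothing in the labels says that equal numbers mark shared cultures. The causes of these shifts were not tested, other than that shorter lists hold fewer weak sites by construction. Read depth is not given, so weak sites near the authors' threshold cannot be told from absent ones.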
